A study of Drosophila melanogaster with 8 samples.

Results

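Of the 5810 filtered peaks of HA-tagged SIN3 220 in Drosophila S2 cells, 359 shared not a single base with any peak of HA-tagged SIN3 187, and these 220HA-only sites are described here. They were chosen on measured values: each had passed the authors' filter for SIN3 220HA, at 3-fold enrichment or more, and each lay outside every peak of the unfiltered SIN3 187HA list, which held 9011 peaks. They were 6.18% of the filtered SIN3 220HA peaks (95% exact interval 5.57 to 6.83%). Of the others, 1158 met only SIN3 187HA peaks that the authors' filter had left out, and 4293 met a filtered SIN3 187HA peak. Because the rule used the presence of a SIN3 187HA peak and the fold enrichment of SIN3 220HA, the enrichment values are given as a description with no test.

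S2 is a cultured line of embryonic origin. Stable S2 lines carried a construct for either isoform, SIN3 187HA or SIN3 220HA, each driven by the metallothionein promoter. Copper sulphate was given to the SIN3 187HA line to induce the protein, whereas the SIN3 220HA line was grown without it and relied on the leaky promoter, so the isoform and the induction cannot be told apart. Chromatin immunoprecipitation with an antibody against the HA tag was followed by sequencing (ChIP-seq), and 2 replicates each of immunoprecipitate and input per isoform made up 8 samples in 4 groups. Peaks were called on the joined replicates, which left each site with 1 value and no replicate spread, and the intervals given for shares cover counting error alone. Sites of 1 list share their libraries and are not replicates of a condition. The cells could not be checked against marker genes, since the files hold peak positions and no expression. An HA immunoprecipitate from cells with no tag was not analysed here.

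SIN3 is the scaffold of a histone deacetylase complex that contains RPD3, and it is recruited to genes by DNA-binding factors because it does not itself recognise a DNA sequence. Alternative splicing gives isoforms that share most of the protein and differ at the C-terminal end. Their balance changes during development, and untransfected S2 cells make mostly SIN3 220. A site that held a SIN3 220HA peak and no SIN3 187HA peak is a candidate place where the isoforms differ, and the question of the comparison was how enriched such sites were, where they lay and how low the SIN3 187HA signal had to be for no peak to be listed.

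The 220HA-only sites were weak and narrow peaks. Their median fold enrichment over input at the summit was 4.25 (quartiles 3.76 and 5.07, range 3.02 to 14.0), compared with 4.58 for peaks that met only a filtered-out SIN3 187HA peak and 7.32 for peaks that met a filtered one. Of the 359 sites, 331 (92.2%, interval 88.9 to 94.8%) lay below the median fold enrichment of the filtered list, 6.22. Sites with at least 5-fold enrichment numbered 96, those with at least 7-fold 22 and those with at least 10-fold 4. The reads piled up at the summit and the local background, both recovered for each peak from its fold enrichment and p-value, had medians of 111 reads (quartiles 90 and 143.5) and 25.4 reads (quartiles 19.0 and 31.9). For peaks that met only a filtered-out SIN3 187HA peak the medians were close to these, at 124.5 and 26.4 reads. For peaks that met a filtered one they were 230 and 30.9 reads. The background thus differed much less between the classes than the pileup did, which restates the difference in fold enrichment.

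**Figure D1:**
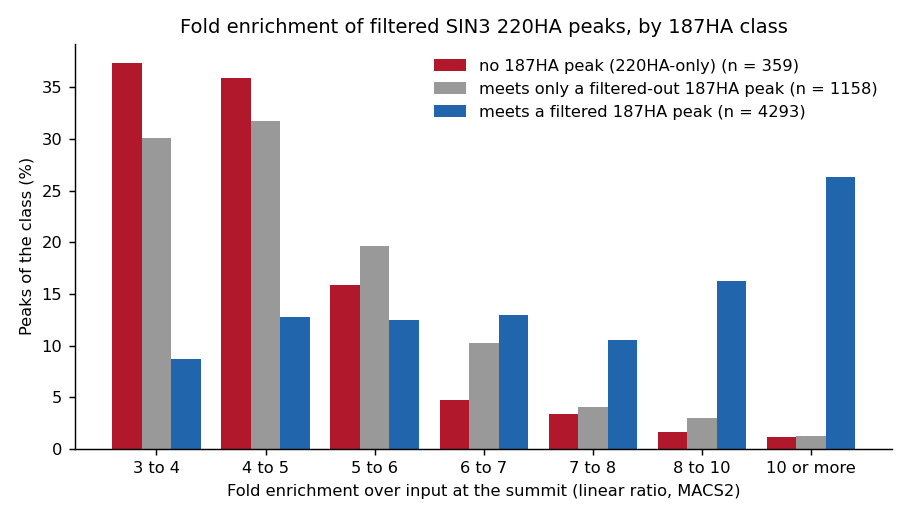
Percentage of filtered SIN3 220HA peaks in each range of fold enrichment over input (x axis, linear ratio), for 359 peaks with no SIN3 187HA peak, 1158 that met only a filtered-out one and 4293 that met a filtered one. Of the 220HA-only sites 37.3% lay between 3 and 4-fold and 1.11% at 10-fold or more, against 8.74% and 26.3% of the peaks that met a filtered SIN3 187HA peak.

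When the filtered SIN3 220HA peaks were ranked by fold enrichment and divided into 10 equal groups, the share with no SIN3 187HA peak was 15.0% in the lowest (87 of 581, interval 12.2 to 18.1%) and 16.7% in the next (97 of 581). It was 5.85% in the fifth, 1.55% in the sixth and 0.344% in each of the highest 2 groups, which held 2 sites of 581 each (interval 0.0417 to 1.24%). Ranked by q-value instead, the lowest group held 139 sites of 581, or 23.9%, and the highest held 1 site. The strongest 220HA-only site ranked 424 of 5810, so every one of the stronger SIN3 220HA peaks met a SIN3 187HA peak of the unfiltered list. At the threshold itself, the weakest site, on 3L from 8296958 to 8297168, had a fold enrichment of 3.02 and a pileup of 114 reads over a background of 37.1. Just outside it, the unfiltered peak on 2R from 12989288 to 12989730 had 2.98, with 112 reads over 36.9. In all, 30 such peaks had no SIN3 187HA peak and less than 3-fold enrichment. Their -log10 p-values were at or past the lowest in the filtered SIN3 220HA list.

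**Figure D2:**
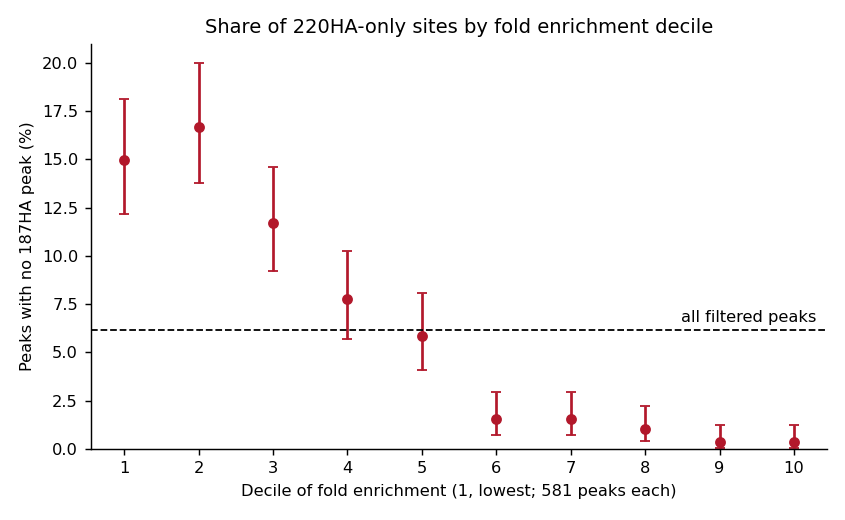
Percentage of filtered SIN3 220HA peaks with no SIN3 187HA peak in each of 10 groups of the list ranked by fold enrichment (x axis, 581 peaks each). Points are shares, bars 95% exact intervals and the dashed line is the 6.18% of all filtered peaks. The share lay at 11.7% or more in the lowest 3 groups and at 1.55% or less in the highest 5.

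Within the class, the sites reached a high enrichment in different ways. The site with the highest fold enrichment, 14.0, lay on X from 2072751 to 2073178 (dm3, as for all positions here), where 227 reads stood over a background of 15.2, the lowest in the list, and the nearest SIN3 187HA peak was 1435 bp away. The next, on 3L from 5833488 to 5834236, had 13.9-fold enrichment with 346 reads over 23.9, and no SIN3 187HA peak within 27080 bp. The site on 3R from 635574 to 636261 had 11.9-fold enrichment with 385 reads over 31.4, yet a SIN3 187HA peak lay only 272 bp from it. These sites therefore ranged from isolated peaks to neighbours of a SIN3 187HA peak.

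Another of the strongest sites stood apart from the rest of the class by its size. It lay on 3R from 17474774 to 17478032, was 3259 bp wide, and held 1380 reads over a background of 134, each the highest value among the 359, for a fold enrichment of 10.2. A SIN3 187HA peak began 144 bp past its end, at 17478177, and ran to 17480002, with 2710 reads over a background of 633. Another filtered SIN3 220HA peak lay 217 bp from the site, from 17478250 to 17479685, within the span of that SIN3 187HA peak. It had 5.40-fold enrichment, with 661 reads over a background of 122. The background of both lists was thus many times the usual one there, and the part of this background in the call was not tested. Without this site the widest were those on 3L from 16996536 to 16998199, 1664 bp wide with 7.20-fold enrichment, and on X from 7187021 to 7188659, 1639 bp wide with 4.92-fold enrichment.

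The remaining 6 of the 10 strongest sites had fold enrichments between 8.62 and 9.93. The site on X at 18373617 had 9.93 (233 reads over 22.6) and lay 19591 bp from a SIN3 187HA peak. The site on 2R at 20032841 had 9.56 (205 reads over 20.6) and lay 7114 bp from one. On X, the site at 19192616 had 9.32 (320 reads over 33.5) and the site at 7531034 had 9.29 (379 reads over 39.9). The last of them were on 3R at 25025635 with 8.65 (218 reads over 24.3) and on X at 12794794 with 8.62 (139 reads over 15.2). Of the 10 strongest sites, 5 were on X and 3 on 3R. For comparison, X held 21.2% of the 220HA-only sites and 16.2% of all filtered SIN3 220HA peaks, and 3R held 20.9% and 24.5%.

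The sites were also narrower than other SIN3 220HA peaks of like fold enrichment, although those peaks held more reads in the ranges below 7-fold. Their median width was 497 bp (quartiles 367 and 694), against 619.5 bp where only a filtered-out SIN3 187HA peak was met and 970 bp where a filtered one was. A narrow peak has less length with which to meet another, so the rule itself favours narrow peaks at any fold enrichment. Width also rises with enrichment, and the widths were therefore compared within ranges of fold enrichment. This matching does not correct for the rule, so the widths are a description of the sites it chose. Between 3 and 4-fold the medians were 448.5, 530.5 and 606 bp in the same order, and at 7-fold or more they were 629, 779 and 1182 bp. Reads were not matched within these ranges. The median pileups were 104, 116 and 129 reads from 3 to 4-fold, and 96, 113.5 and 150 reads from 4 to 5-fold. Whether the widths differ at equal pileup was not tested. The quartile ranges of the classes overlapped below 7-fold. At 7-fold or more that of the 22 sites ended at 779.5 bp, below the 835 bp at which that of the peaks meeting a filtered SIN3 187HA peak began. This range has no upper end, and 4 of the 22 sites reached 10-fold against 1129 of those 2277 peaks, so peaks of like enrichment are compared only in the ranges below 7-fold. Across the 359 sites Spearman's rho between fold enrichment and width was 0.206, and across all 5810 filtered peaks it was 0.514; the sites share libraries, and the values are a description.

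The fold enrichment that SIN3 187HA would have needed to be listed at these sites was then estimated. The unfiltered SIN3 187HA list reached down to a -log10 p-value of 3.01, and the SIN3 187HA background at each site was taken from its SIN3 220HA background and the ratio of backgrounds at sites with both peaks, which was 1.37 on X and 1.44 to 1.61 on the autosomal arms. The listing limit so obtained had a median of 1.79-fold (range 1.35 to 2.05). All 359 sites had a SIN3 220HA fold enrichment above this limit, as 100% of the filtered peaks did, so that count says nothing particular to them. The fold enrichment was at least 2 times the limit at 315 sites, or 87.7%, which was below the 95.6% of all filtered peaks. The upper end of the range rests on estimated backgrounds below 12.1 reads, the lowest in the filtered SIN3 187HA list. At the X site from 2072751, for example, the estimate was 11.1 reads. With the background of the nearest SIN3 187HA peak instead, the limit had a median of 1.77-fold and a highest value of 1.92. Then 310 sites (86.4%) were at least 2 times above it, against 94.9% of all filtered peaks. A limit estimated from the 95% of SIN3 187HA peaks with the smallest p-values had a median of 2.27-fold. At least 2 times above it were 137 sites (38.2%), against 77.9% of all filtered peaks. The estimate takes any summit past the lowest listed p-value as listed. A minimum length of peaks in the calling could make the true limit higher, and its size was not tested.

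Against the filtered SIN3 187HA list the limit was much higher, at a median of 3.98-fold. The fold enrichment of SIN3 220HA exceeded it at 214 of the 359 sites (59.6%), compared with 89% of all filtered peaks. For the other 145 sites, a SIN3 187HA peak as enriched as the SIN3 220HA peak would not have exceeded this limit. The limit uses the lowest -log10 p-value in the filtered SIN3 187HA list, whereas the authors' filter used an irreproducible discovery rate and 3-fold enrichment. The sites with the widest margin over the unfiltered limit were those on 3L at 5833488, at 7.63 times the limit, on 3R at 17474774, at 7.61 times, and on X at 2072751, at 7.09 times. For the site on 3R the estimate rests on the ratio for the whole arm. With the background of the adjacent SIN3 187HA peak the limit fell to 1.13-fold.

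**Figure D3:**
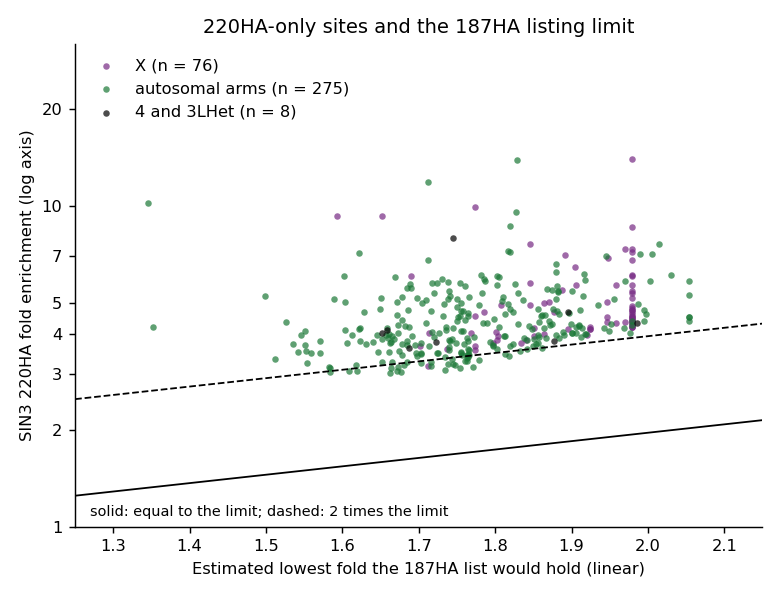
SIN3 220HA fold enrichment (y axis, log scale) of each of the 359 sites against the estimated lowest SIN3 187HA fold enrichment that would have been listed there (x axis, linear). The solid line marks equality and the dashed line 2 times the limit. All points lie above the solid line and 315 at or above the dashed one. The column of X sites near 1.98-fold holds those at the lowest background. Their estimated SIN3 187HA background, 11.1 reads, is below the lowest in the filtered SIN3 187HA list, 12.1 reads.

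For scale, the sites where both isoforms had a peak show how far the enrichments diverged when both could be measured. Among the 2372 SIN3 220HA peaks of at least 7-fold enrichment that met a SIN3 187HA peak, the fold enrichment of SIN3 187HA divided by that of SIN3 220HA had a median of 0.733, was under 0.5 at 291 (12.3%, interval 11.0 to 13.7%) and under 0.25 at 13, with a lowest value of 0.148. At the 22 220HA-only sites of at least 7-fold enrichment, the listing limit divided by the SIN3 220HA fold enrichment had a median of 0.228 and was at most 0.283. These 22 sites were selected for having no SIN3 187HA peak, so their place beyond the usual range follows from the rule. The ratio compares lists made at different depth, and below 7-fold its low end is hidden by the listing limit.

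The distance to the nearest SIN3 187HA peak varied over 3 orders of magnitude. It had a median of 2008 bp (quartiles 795.5 and 6919 bp, range 83 to 153529 bp). Of the 359 sites, 23 lay within 200 bp of a SIN3 187HA peak, 110 within 1000 bp (30.6%, interval 25.9 to 35.7%) and 298 within 10000 bp. The closest was on X from 14136615 to 14136857, 83 bp from a SIN3 187HA peak, with 6.90-fold enrichment. The next were on 3L at 1592682, at 100 bp with 4.73-fold, and on 3R at 17802271, at 105 bp with 4.30-fold. On the other side of the rule, the filtered SIN3 220HA peak with the least shared sequence was on 3L from 7319322 to 7320009, where 90 bp were covered, and no filtered peak shared fewer than 10 bp. Membership therefore did not turn on a few bases at any site: the nearest cases lay 83 bp apart on one side of the rule and shared 90 bp on the other.

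**Figure D4:**
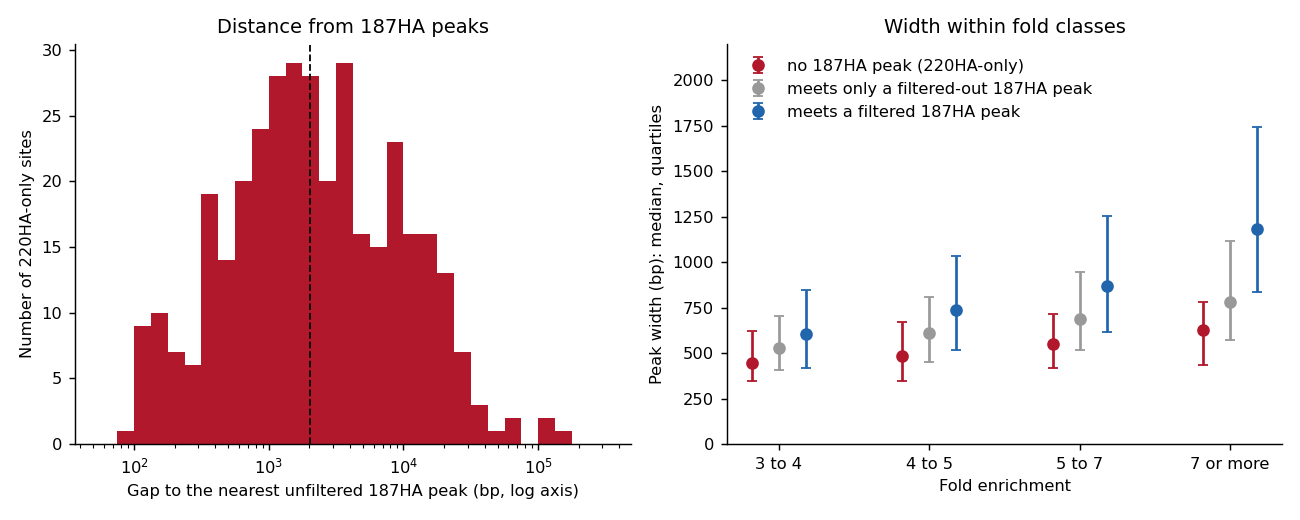
Left, number of 220HA-only sites by the gap to the nearest unfiltered SIN3 187HA peak (x axis, bp, log scale), with the median of 2008 bp dashed. Right, median width in bp of filtered SIN3 220HA peaks in 4 ranges of fold enrichment, with quartiles as bars, for the 3 classes. The 220HA-only sites have the lowest median in every range, with quartile ranges that overlap those of the other classes except, in the open range of 7-fold or more, that of the peaks that met a filtered SIN3 187HA peak.

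The most remote sites were on heterochromatin and on X. The site on 3LHet, the mapped heterochromatin of 3L, from 2243520 to 2243952 was 153529 bp from a SIN3 187HA peak and had 4.02-fold enrichment, with 157 reads over 38.3. On X, the site at 12097379 was 132989 bp from a SIN3 187HA peak and had 5.68-fold enrichment, with 99 reads over 16.6. The X site at 22134751 was 103182 bp away and had 4.49-fold enrichment, with 72 reads over 15.2. The same 3 sites were also the farthest from any other filtered SIN3 220HA peak, at 697021, 174118 and 120556 bp.

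The share of sites near another filtered SIN3 220HA peak, set beside that of the other classes, changed with the distance chosen. Another filtered peak lay within 1000 bp of 135 of the 359 sites (37.6%, interval 32.6 to 42.8%), against 31.2% (28.5 to 33.9%) of peaks that met only a filtered-out SIN3 187HA peak and 30.5% (29.2 to 31.9%) of those that met a filtered one. Within 10000 bp the order turned round, with 80.2% of the 220HA-only sites (75.7 to 84.2%), 89.7% (87.8 to 91.4%) and 87.2% (86.1 to 88.1%). At 1000 bp the interval of the 220HA-only sites overlapped that of the peaks that met only a filtered-out SIN3 187HA peak. It did not overlap that of the peaks that met a filtered one. The intervals of all the classes overlapped within 500 bp (21.4, 19.8 and 19.6%, in the same order) and within 2000 bp (51.3, 50.2 and 48.2%). Counted to the unfiltered SIN3 220HA list, the shares were 52.9, 45.8 and 45.4% within 1000 bp. There too the interval of the 220HA-only sites (47.6 to 58.2%) overlapped that of the peaks that met only a filtered-out SIN3 187HA peak (42.9 to 48.7%). Within 10000 bp of a peak of that list the shares were 90.8, 94.0 and 92.8%, with overlapping intervals. For the 135 with a close neighbour, that neighbour met a filtered SIN3 187HA peak at 67, met only a filtered-out one at 36 and was itself 220HA-only at 32. Sites that were each other's nearest peak, such as those on 3L at 1095413 and 1096557, were each counted among the 32. The 32 are therefore not separate pairs. In the whole filtered list, by comparison, 4293 of 5810 peaks met a filtered SIN3 187HA peak and 359 were 220HA-only.

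Neighbouring 220HA-only sites with gaps of at most 10 kb and no other filtered SIN3 220HA peak between them formed 31 runs that held 66 sites (18.4%), and 293 sites stood alone. Of the runs, 27 were pairs and 4 held 3 sites. On 2L, the sites at 9189302, 9189968 and 9198177 had fold enrichments of 6.10, 5.54 and 7.16, with 168, 190 and 289 reads, and were the strongest of the longer runs. On 2R, the sites at 14834725, 14837714 and 14839815 had 3.24, 5.24 and 4.02-fold enrichment and lay at least 18405 bp from any SIN3 187HA peak. On X, a run at 11241778, 11242875 and 11243570 had 4.74, 4.18 and 4.92-fold enrichment and lay 377 bp from a SIN3 187HA peak at its closer end. A further run on X, at 18428493, 18429059 and 18438750, had 4.35, 3.73 and 4.03-fold enrichment at 16746 bp or more from a SIN3 187HA peak.

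The share of SIN3 220HA peaks that were 220HA-only differed along the genome. It was 8.07% on X (76 of 942, interval 6.41 to 9.99%) and 5.69% on the 4 autosomal arms together (275 of 4829, 5.06 to 6.39%). Among the arms, 3L had 7.69% (94 of 1222, 6.26 to 9.33%), 3R 5.26% (75 of 1426), 2R 4.91% (58 of 1182) and 2L 4.80% (48 of 999), and the intervals of X and 3L overlapped. By 1-Mb windows, most sites were found on X from 13 to 14 Mb, with 10 of 69 filtered peaks, and from 11 to 12 Mb, with 9 of 58. On 3L from 3 to 4 Mb there were 9 of 77.

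Sites on X rested on fewer reads than those elsewhere. Their median pileup was 86 reads and their median background 16.4, against 119 and 27.8 on the autosomal arms, while their median fold enrichment was 4.55 against 4.16. Of the 40 sites at the lowest background of the list, 15.2 reads, 30 were on X. That background was also the lowest among all filtered peaks. Whether filtered peaks on X outside the class also had fewer reads than those elsewhere was not tested. The lower reads on X are therefore not shown to be particular to the class. The higher share on X depended on the measure by which peaks were matched. Within ranges of fold enrichment it was 15.6% on X and 15.5% on the autosomal arms from 3 to 4-fold, 18.3% and 10.6% from 4 to 5-fold, 5.44% and 4.79% from 5 to 7-fold, and 2.75% and 0.543% at 7-fold or more. The intervals of X and the autosomal arms overlapped from 3 to 4 and from 5 to 7-fold and did not overlap in the other ranges. Weighted by the X peaks in each range, X was higher by 2.77 percentage points. Within ranges of -log10 p-value the corresponding shares were 27.0% and 23.2% below 30, 8.20% and 12.0% from 30 to 50, 3.75% and 4.99% from 50 to 100, and 1.58% and 0.490% at 100 or more, with overlapping intervals in every range, and the weighted difference was -0.46 points, a reversed sign.

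**Figure D5:**
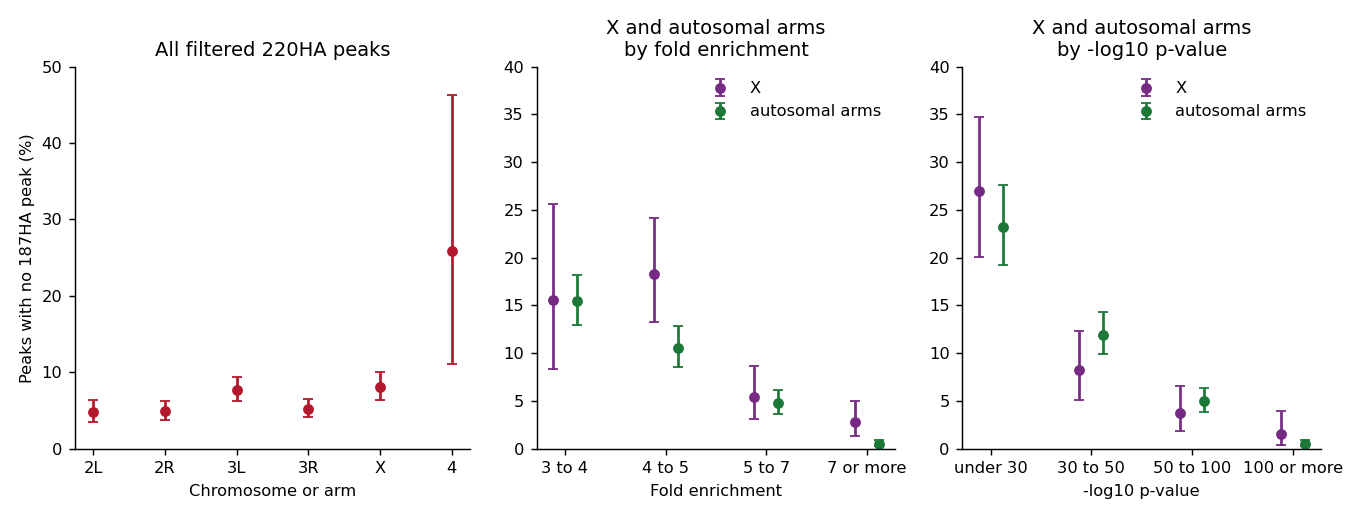
Percentage of filtered SIN3 220HA peaks with no SIN3 187HA peak, by chromosome or arm (left) and for X and the autosomal arms within ranges of fold enrichment (middle) or -log10 p-value (right). Points are shares and bars 95% exact intervals. Chromosome 4 has 25.9% of 27 peaks, and X lies above the autosomal arms in each range of fold enrichment but below them between 30 and 100 in -log10 p-value.

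Chromosome 4, the small dot chromosome that is largely packaged like heterochromatin although it carries active genes, had the highest share among the chromosomes with more than 3 peaks, with 7 of its 27 filtered SIN3 220HA peaks, or 25.9% (interval 11.1 to 46.3%). At the site from 523035 to 523905 the fold enrichment was 7.95, with 241 reads over 29.4, and a SIN3 187HA peak lay 318 bp away. The site from 525583 to 526791 formed a pair with it and had 3.60-fold enrichment, with 126 reads over 34.3. The other 5 had between 3.76 and 4.66-fold enrichment, at 64135 (3.80, 87 reads), 76991 (4.66, 98 reads), 152764 (4.10, 166 reads), 335534 (3.76, 115 reads) and 1144535 (4.31, 69 reads). The fold enrichment of all 7 was more than 2 times the listing limit, the closest being the site at 64135, at 2.02 times. With 27 peaks the interval is wide, and it lies above the share on the autosomal arms when peaks are not matched. By fold enrichment the sites were 3 of 7 peaks from 3 to 4-fold, 3 of 9 from 4 to 5-fold, 0 of 6 from 5 to 7-fold and 1 of 5 at 7-fold or more. In every range of fold enrichment and of -log10 p-value the interval on chromosome 4 overlapped that on the autosomal arms. A higher share on chromosome 4 among peaks of like strength is therefore not shown.

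Genes could be named only along the stretch of 2L covered by the dm3 gene positions used here, as the gene whose span held the summit of a site. No count over this stretch is given, and the genes are described singly. The gene tai, which encodes a coactivator of the ecdysone receptor, held 4 sites, namely the run of 3 described above and another at 9211473 with 3.70-fold enrichment and 134 reads. A site at 3339308 with 4.39-fold enrichment (87 reads over 19.0) lay in E23, an ecdysone-induced gene for an ABC transporter. The site at 2807614 lay in daw, the gene of an activin-like ligand of the TGF-beta family, within 1 kb of a start, with 5.40-fold enrichment (115 reads over 20.5). Snoo, which encodes a corepressor that binds Smad proteins in that pathway, held a site at 7973481 with 3.53-fold enrichment, 479 bp from a SIN3 187HA peak. RapGAP1, a GTPase-activating protein for the small GTPase Rap1, held sites at 7526436 with 3.33-fold and at 7573446 with 6.99-fold enrichment. The latter had 123 reads over 16.7, a listing limit of 1.95-fold and a SIN3 187HA peak 1453 bp away.

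The site at 174267 in spen, an RNA-binding regulator of transcription, had 4.72-fold enrichment (139 reads over 28.6). The site at 2904785 in lilli, a member of the AF4/FMR2 family found in the super elongation complex, had 3.27-fold enrichment (96 reads over 28.6). The genes of the type IV collagen chains, vkg and Col4a1, are neighbours in the genome and each held a site. The site in vkg, at 5025791 and within 1 kb of its start, had 5.21-fold enrichment with 189 reads over 35.5 and lay 568 bp from a SIN3 187HA peak. The site in Col4a1, at 5030514, had 4.62-fold enrichment with 91 reads over 18.9 and lay 840 bp from one. In bib, a neurogenic gene for a membrane protein of the aquaporin family, the site at 9986101 had 5.82-fold enrichment (155 reads over 25.8) and no SIN3 187HA peak within 15609 bp. Sites within 1 kb of a start were also found at kraken (852490, 6.09-fold), CG3702 (4226770, 4.16-fold), CG9154 (6070236, 4.09-fold) and HemK1 (6467430, 5.20-fold), and a site at 9132930 lay in CG32982 with 3.96-fold enrichment. The named sites lay both near starts and farther inside genes, where the naming rule placed them, and none of the named sites reached 8-fold enrichment. Other sites on this stretch had a summit in no named gene span. Among them were those at 4886729 with 6.22-fold and at 6709012 with 5.74-fold enrichment.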

How the data were processed

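Groups were taken from the sample titles. The members and the lists of sites were chosen with earlier results of these data known. Per the submitters' processing notes and the study, the authors aligned reads to dm3 with Bowtie2 and retained those that mapped uniquely. Replicates were joined, and MACS2 2.1.0 called peaks against input with duplicates kept. The deposited unfiltered lists give a score, a ratio (the fold enrichment over local background at the summit) and -log10 values of p and q. The authors' filtered lists give positions of peaks past an irreproducible discovery rate threshold and 3-fold enrichment. Starts count from 1 in the filtered and from 0 in the unfiltered lists. Joining leaves no replicate error, so no test was made, and kept duplicates can raise the pileup. Total reads per sample were not used here.

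A site was 220HA-only when it shared no base with an unfiltered SIN3 187HA peak (numpy 2.4.6 and pandas 2.3.3 in Python 3.11.15, checked against bedtools 2.31.1). Fold enrichment was taken as (pileup + 1) / (background + 1) and p as the Poisson chance of exceeding the pileup, which fixed both for each peak. Recovered pileups were whole within 0.05 at all 359 sites. The listing limit is the smallest fold enrichment that reached the lowest listed -log10 p-value, with the SIN3 187HA background estimated as the SIN3 220HA background divided by the median ratio for the chromosome. Exact (Clopper-Pearson) 95% intervals came from scipy 1.17.1, and figures from matplotlib 3.10.9. The code was tested on simulated data. Sites were named by rule: the 10 of highest fold enrichment, the 3 widest, weakest, closest to and farthest from other peaks, those in the longest runs, those outside the 5 main arms, and those on 2L within a gene. Gene spans came from the dm3 transcript positions given with the study, of whose 1981 accessions 1863 matched a symbol in RefSeq. No sequence is shown, as no dm3 genome was used here. Alternatives were other overlap rules, thresholds, lists, limits and gaps.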

Additional observations from a re-analysis of the deposited data

How the results depend on the processing

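No paired analysis was possible because each peak list came from joined replicates, and for the same reason leaving out a replicate was not run. The number of 220HA-only sites changed with the lists, the enrichment threshold and the overlap rule. It was 1517 against the filtered SIN3 187HA list, 1014 where SIN3 187HA peaks had to cover under 50% of the peak, 225 at 4-fold or more, 96 at 5-fold or more, and 1816 of 8862 in the unfiltered SIN3 220HA list. It was 358, 299 and 249 with SIN3 187HA peaks widened by 100, 500 and 1000 bp, 412 where only the summit had to be free, and 351 on the 5 arms. Of the 10 strongest sites, 7 remained after widening by 1000 bp and 8 after 500 bp.

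Raising the threshold to 4-fold moved the median fold enrichment to 4.74 and the median background to 21.6 reads, and the share on the autosomal arms to 3.84%. In the unfiltered SIN3 220HA list the median fold enrichment was 2.69, the pileup 67 reads, the background 23.8 reads and the width 309 bp, and 25.4% of X peaks and 19.1% of autosomal ones had no SIN3 187HA peak. Widening by 1000 bp gave 5.94% on X and 3.87% on the autosomal arms. Ranking by q-value put 23.9% in the lowest group. The X excess of 2.77 points within ranges of fold enrichment became -0.46 points within ranges of -log10 p-value, a comparison chosen after seeing the data, and the cause was not tested.

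The median listing limit was 1.72-fold with the ratio of the lowest backgrounds and 3.98-fold with the lowest -log10 p-value of the filtered SIN3 187HA list. At least 2 times above the latter limit were 11 sites (3.06%), against 37.5% of all filtered peaks. With the -log10 p-value that 95% of SIN3 187HA peaks exceeded, also chosen after seeing the data, the median limit was 2.27-fold. Then 137 sites (38.2%) were at least 2 times above it, against 77.9% of all filtered peaks. Between summits, the median distance was 2734 bp to a SIN3 187HA peak and 2736 bp to another filtered SIN3 220HA peak. With gaps of 5 or 20 kb, 56 or 80 sites were in runs. The recovered pileups moved by under 3 reads when the p-value was taken as that of at least the pileup. Depth limits these values most at the lowest background, and a site with no listed SIN3 187HA peak is not shown to lack SIN3 187HA.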

Other observations

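The reverse class was smaller. Of the 4903 filtered SIN3 187HA peaks, 180 (3.67%) shared no base with an unfiltered SIN3 220HA peak. They had a median fold enrichment of 4.48, a median pileup of 87.5 reads, a median background of 18.5 reads and a median width of 477.5 bp, and thus resembled the 220HA-only sites in width and enrichment while lying farther from the other list, at a median gap of 3463.5 bp against 2008 bp. On chromosome 4, 0 of 11 filtered SIN3 187HA peaks were of this kind (interval 0 to 28.5%). This interval overlaps the 11.1 to 46.3% of the 220HA-only share there, so no difference between the isoforms is shown. In the unfiltered SIN3 220HA list, 20 of 55 peaks on chromosome 4 (36.4%, interval 23.8 to 50.4%) had no SIN3 187HA peak, compared with 20.5% of all 8862.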
